A study of Mus musculus with 56 samples.

Results

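Met and 6 genes that lie beside it on mouse chromosome 6, namely Tes, Cav2, Cav1, Capza2, St7 and Wnt2, were followed across 56 mammary tumors, and all 7 genes were measured among 18194 genes in all. Each gene was represented by the probe set of its symbol with the highest mean over all arrays, out of 11 probe sets for the 7 genes. All 7 passed a filter that kept 12482 genes whose probe set exceeded the median of all values, 5.83 on the log2 scale, on at least 6 arrays. Wnt2 exceeded it on 9 arrays and each of the other members on all 56. The genes were taken as a set because neighbors that rise together in a tumor are what a focal amplification would give; DNA copy number was not analysed here.

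The tumors grew from p53-null mammary tissue, transplanted unirradiated into the inguinal mammary fat pad of female BALB/c hosts from which the mammary epithelium had been cleared at 3 weeks of age. All transplants lacked p53, in every group, and stroma, vessels and immune cells could come from the host. Hosts heterozygous for Tgfb1, the gene of transforming growth factor beta 1, gave 18 tumors after irradiation of the host (Het_irradiated) and 6 after sham irradiation (Het_sham). Wild-type hosts gave 23 tumors after irradiation (WT_irradiated) and 9 after sham irradiation (WT_sham). The irradiation or sham treatment preceded transplantation by 3 days, and the labels used here give no dose. Precision is limited by the number of arrays, 1 for each tumor. Nothing in the labels says if 2 tumors came from the same host, so the p-values below reflect only the spread among these samples.

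Met is the receptor tyrosine kinase for hepatocyte growth factor, which is made largely by stromal cells and drives growth, movement and branching of epithelium, including that of the mammary gland. In tumors the receptor gene can be amplified, and genes next to it may then be gained with it whether or not they act on growth. Cav1 and Cav2 encode caveolins, the coat proteins of caveolae, which are abundant in endothelium, adipocytes and fibroblasts. Tes encodes testin, a focal adhesion protein, and Capza2 a subunit of the actin capping protein. St7 has been described as a candidate tumor suppressor, and Wnt2 is a secreted Wnt ligand.

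In the GRCm38.p6 annotation the members run along the chromosome as Tes at chr6:17065149-17105825, Cav2 at chr6:17281185-17289130 and Cav1 at chr6:17306335-17341328. Met follows at chr6:17463349-17573980, then Capza2 at chr6:17637010-17666972, St7 at chr6:17693901-17943023 and Wnt2 at chr6:17985474-18032772. RefSeq promoter windows (GRCm38.p6, 250 bases before to 50 after a transcript start) were available for 7 of 7 members. Those of Met (chr6:17463707-17464006), Capza2 (chr6:17636760-17637059) and Cav2 (chr6:17280935-17281234), all on the plus strand, are shown as examples among the genes that varied together across tumors. Capitals mark matches to a GC box (GGGCGG or CCGCCC), an AP-1 site (TGAGTCA or TGACTCA) and an E-box (CACGTG), searched on both strands.
Met: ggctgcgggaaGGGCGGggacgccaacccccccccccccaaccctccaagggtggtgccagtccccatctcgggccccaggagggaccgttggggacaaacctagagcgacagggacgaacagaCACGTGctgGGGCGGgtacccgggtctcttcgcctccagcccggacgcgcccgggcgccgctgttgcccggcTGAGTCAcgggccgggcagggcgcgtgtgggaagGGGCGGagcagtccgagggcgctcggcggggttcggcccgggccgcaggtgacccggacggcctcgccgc
Capza2: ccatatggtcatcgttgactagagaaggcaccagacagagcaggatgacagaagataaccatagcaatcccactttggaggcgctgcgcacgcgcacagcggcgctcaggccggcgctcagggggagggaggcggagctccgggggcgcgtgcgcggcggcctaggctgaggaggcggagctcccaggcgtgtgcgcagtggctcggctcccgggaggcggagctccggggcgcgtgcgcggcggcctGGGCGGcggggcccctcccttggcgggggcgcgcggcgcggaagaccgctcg
Cav2: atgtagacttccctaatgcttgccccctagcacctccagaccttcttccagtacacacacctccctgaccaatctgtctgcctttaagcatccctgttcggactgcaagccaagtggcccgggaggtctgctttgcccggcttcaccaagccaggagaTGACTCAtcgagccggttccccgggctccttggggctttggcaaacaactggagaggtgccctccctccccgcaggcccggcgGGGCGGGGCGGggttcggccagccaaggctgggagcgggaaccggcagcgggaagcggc
The Met window held 3 GC boxes, 1 AP-1 site and 1 E-box, that of Capza2 1 GC box, and that of Cav2 2 GC boxes that share a base, and 1 AP-1 site. Tes varied with Met about as closely as Cav2 did. Its window, not shown, held 2 GC boxes, 0 AP-1 sites and 0 E-boxes. Of 32851 promoter windows of this length, 35.7% held a GC box, 5.20% an AP-1 site and 7.15% an E-box. The 7 members had 10 windows. Counted by gene over any of its windows, GC boxes were present in 6 of the 7 members, AP-1 sites in 2 and E-boxes in 2. The percentages are per window, so the 2 kinds of count are not directly comparable. A match describes the letters only.

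Values are log2 expression after robust multi-array averaging (RMA). Array medians were 5.57 to 5.71 in tumors of heterozygote hosts and 5.92 to 6.00 in tumors of wild-type hosts, so levels were read within a host genotype unless stated. The epithelial marker list (mean of 10 genes such as keratins and claudins) spanned 6.86 to 12.58, so tumors differed widely in epithelial RNA. In bulk RNA, fewer cells of a type and less RNA per cell cannot be told apart. The 18S ribosomal RNA control was below 11 on 9 arrays, and counts are also given without them. They were WT_sham replicates 60, 61, 64 and 65, WT_irradiated replicates 57 and 59, Het_sham replicate 19 and Het_irradiated replicates 4 and 29. In wild-type hosts they made up a larger share of the sham than of the irradiated group.

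Met fell into 2 separate sets of tumors. It was between 13.14 and 14.07 in 37 tumors and between 7.25 and 11.88 in 19 tumors, with no tumor in between. The cut came from the split into 2 classes that explained most of the variance within each host genotype, and it explained 94.1% of the variance of Met in heterozygote hosts and 76.5% in wild-type hosts. Between the classes lay a gap of 2.01 in heterozygote hosts and of 1.26 in wild-type hosts. Of 12482 genes, 137 (1.1%) had a gap of at least 1 in both host genotypes, and Met and St7 were among them. Among the other 12481 genes, 326 (2.61%) had a split that explained as much variance as that of Met or more, taking for each gene the host genotype where it explained less. WT_irradiated replicate 16 stood apart with the lowest Met value of the series, 7.25, and the next lowest was Het_irradiated replicate 50 with 9.67.

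Both sets of tumors occurred in every group. Met ranged from 9.67 to 14.07 with a median of 13.66 in Het_irradiated tumors (n = 18), and from 9.76 to 13.94 with a median of 12.33 in Het_sham tumors (n = 6). It ranged from 7.25 to 14.06 with a median of 13.84 in WT_irradiated tumors (n = 23), and from 11.13 to 14.01 with a median of 13.67 in WT_sham tumors (n = 9). The groups overlapped over nearly their whole range, and except in Het_sham tumors the median lay in the higher set. The dimmer Met probe set, which had a mean of 8.34, gave an r of 0.93 with the brighter one over the 56 arrays. The higher Met values lay near the top of the scale of these arrays, where 0.135% of all values in the table exceeded 14.

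**Figure D1:**
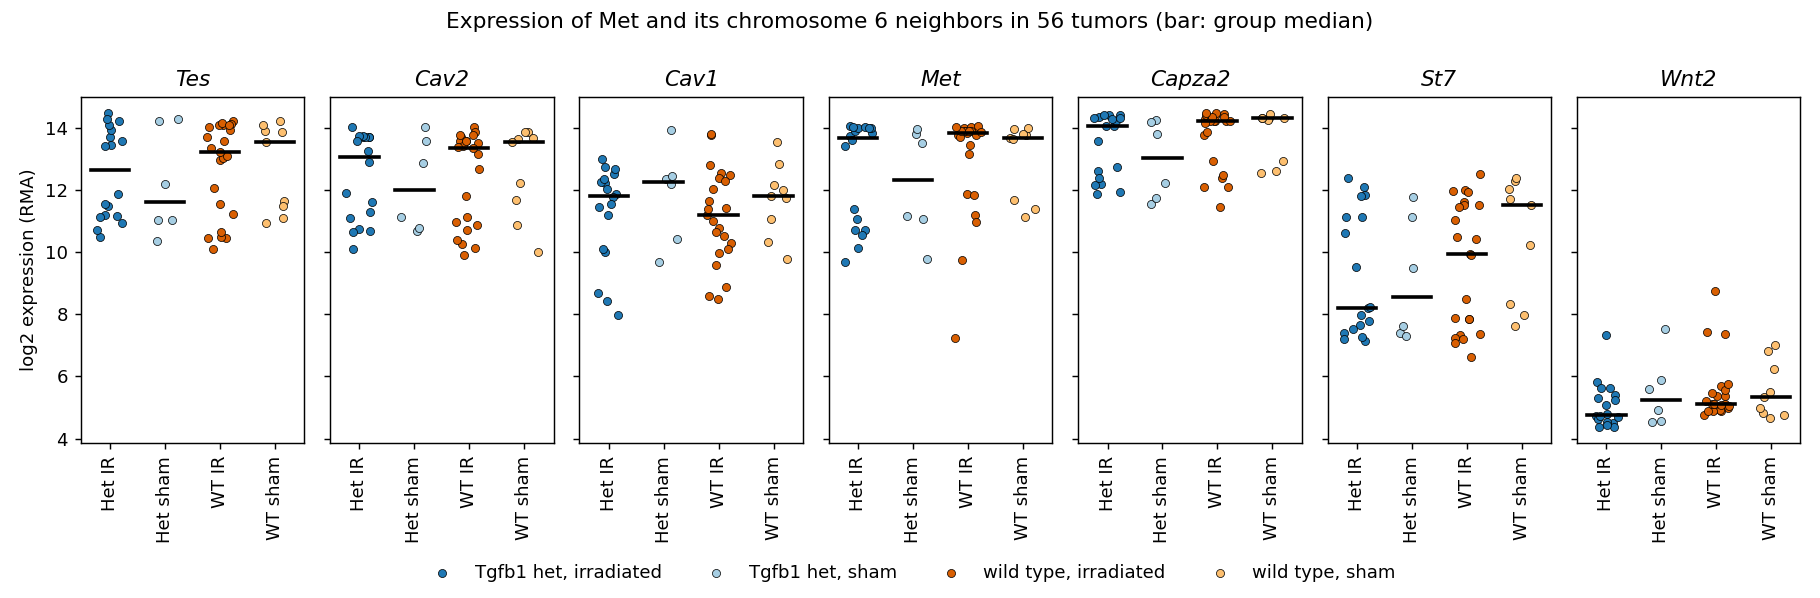
Log2 expression (RMA) of the 7 members, in their order along chromosome 6, in each of 56 tumors; points are tumors, bars are group medians, Het and WT are host genotypes and IR is host irradiation. Met and Capza2 each show an upper and a lower set of tumors in all 4 groups, while most tumors are low for Wnt2 and a few stand above them.

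Capza2 divided the tumors exactly as Met did. It was between 13.58 and 14.49 in the 37 tumors on the higher side for Met and between 11.44 and 12.92 in the 19 on the lower side, so that 0 of 56 tumors lay on different sides for both genes. By group, Capza2 ran from 11.88 to 14.41 (median 14.06) in Het_irradiated tumors and from 11.54 to 14.24 (median 13.01) in Het_sham tumors. It ran from 11.44 to 14.49 (median 14.21) in WT_irradiated tumors and from 12.54 to 14.44 (median 14.30) in WT_sham tumors. The lowest Capza2 value belonged to the same tumor as the lowest Met value, WT_irradiated replicate 16. Of the other 12481 genes tested, 3 (0.024%) lay on the same side as Met in at least 50 of 56 tumors, and these 3 were Capza2, Cav2 and Tes. The median over all genes was 28 tumors on the same side. Without the 9 arrays of low 18S control, 33 tumors were higher for both genes, 14 were lower for both and 0 differed.

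Within the higher set Capza2 varied with Met by Spearman rho in both host genotypes. Within the lower set, which held fewer tumors, no correlation of Capza2 passed. In heterozygote hosts the coefficients were alike in the 2 sets, and a difference between the sets was not tested. Correlations between each of the 6 other members and Met were computed separately on the higher and lower side in each host genotype, 24 in all, because the 2 sets are separate clusters and a pooled coefficient would mostly measure the distance between them. Among the 23 higher tumors of wild-type hosts, Capza2 had a Pearson r of 0.81 with Met (permutation test, two-sided, adjusted p = 0.00192) and a Spearman rho of 0.63 (adjusted p = 0.0353). Without the 2 tumors farthest from the median of Met the r was 0.54, and without arrays of low 18S it was 0.81 (n = 19). Among the 14 higher tumors of heterozygote hosts, r was 0.65 (permutation test, adjusted p = 0.110) and rho 0.75 (adjusted p = 0.0353), and r was 0.58 without the 2 farthest tumors. Among the 10 lower tumors of heterozygote hosts, r was 0.69 (permutation test, adjusted p = 0.137), rho 0.72 (adjusted p = 0.137) and r 0.46 without the 2 farthest tumors. Among the 9 lower tumors of wild-type hosts, r was 0.77 (permutation test, adjusted p = 0.137) and rho 0.20 (adjusted p = 0.818), and r turned to -0.41 without the 2 farthest tumors. None of the 20 correlations of the other members passed after adjustment, by Pearson or by Spearman; the lowest Pearson adjusted p among them was 0.110, for Wnt2.

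**Figure D2:**
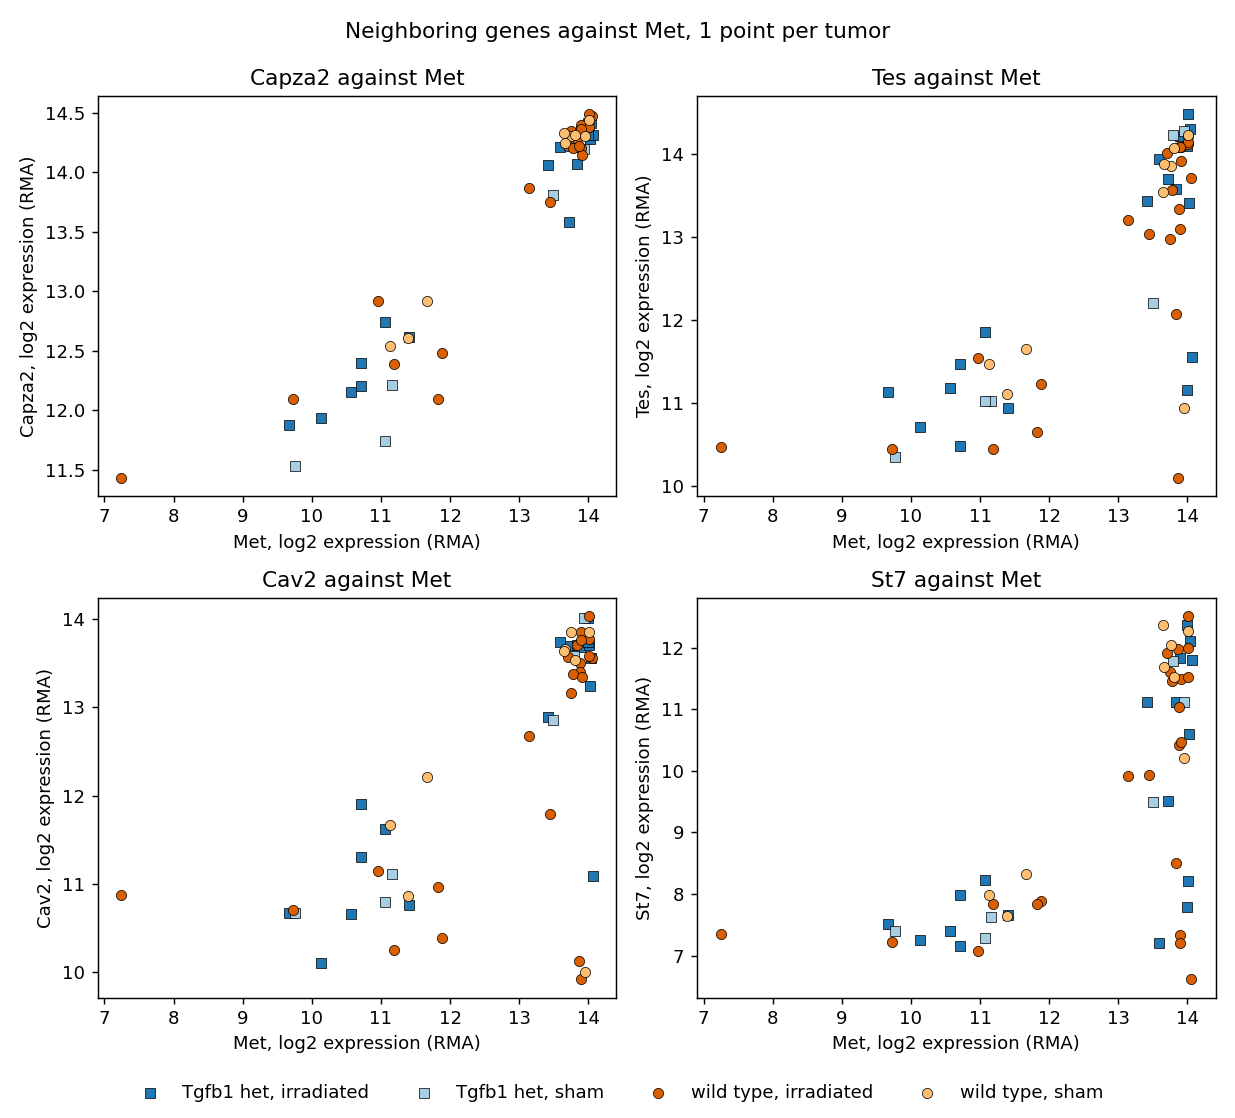
Log2 expression (RMA) of Capza2, Tes, Cav2 and St7 against that of Met, 1 point per tumor, circles for wild-type and squares for Tgfb1 heterozygote hosts. Tumors form an upper right and a lower left cloud for Capza2, and for Tes, Cav2 and St7 some tumors with Met near 14 lie as low as the tumors with lower Met.

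Tes and Cav2, on the side of Met toward lower coordinates, each lay on the same side as Met in 50 of 56 tumors. Tes ranged from 10.48 to 14.48 (median 12.63) in Het_irradiated tumors and from 10.35 to 14.28 (median 11.61) in Het_sham tumors. It ranged from 10.10 to 14.22 (median 13.21) in WT_irradiated tumors and from 10.93 to 14.22 (median 13.54) in WT_sham tumors. All 31 tumors that were higher for Tes were also higher for Met, and 6 tumors were higher for Met but lower for Tes. For Cav2, which forms caveolar coats together with Cav1, 32 tumors were higher with Met and 5 were lower although Met was higher. A single tumor, WT_sham replicate 17, was on the higher side for Cav2 with Met lower, at 12.21, close to the cut, since WT_irradiated replicate 39 at 11.79 was counted as lower.

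Cav2 covered 10.10 to 14.01 (median 13.07) in Het_irradiated tumors and 10.67 to 14.01 (median 11.99) in Het_sham tumors. It covered 9.91 to 14.04 (median 13.35) in WT_irradiated tumors and 9.999 to 13.86 (median 13.54) in WT_sham tumors. As for Met, no group was free of lower or of higher tumors.

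The tumors in which Tes or Cav2 parted from Met were not the same. In 3 tumors both were lower while Met, Capza2 and St7 were higher. WT_irradiated replicate 5 had Tes at 10.10 and Cav2 at 10.12, with Met at 13.86, Capza2 at 14.22 and St7 at 11.98. In WT_sham replicate 60, Tes was 10.93 and Cav2 9.999 beside a Met value of 13.95. The third was Het_irradiated replicate 47, with Tes at 11.55 and Cav2 at 11.08 beside the highest Met value of the series, 14.07. In these tumors Capza2 and St7 were high and Tes and Cav2, on the other side of Met, were low, while Cav1, which lies between Cav2 and Met, was at 12.27, 12.14 and 8.69. Tes was lower with Cav2 higher in 3 tumors, of which Het_irradiated replicate 1 had Tes at 11.15 and Cav2 at 14.01. WT_irradiated replicate 2 and Het_sham replicate 38, with Tes at 12.08 and 12.20, were intermediate. The opposite, Tes higher with Cav2 lower, was seen in WT_irradiated replicate 40, with Tes at 13.09 and Cav2 at 9.91, and in WT_irradiated replicate 39, which was near the cut.

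Cav1, the principal caveolin, lies next to Cav2 and was less closely tied to the sides of Met, with 39 of 56 tumors on the same side. It ranged from 7.96 to 12.99 (median 11.81) in Het_irradiated tumors and from 9.68 to 13.92 (median 12.27) in Het_sham tumors. It ranged from 8.48 to 13.79 (median 11.18) in WT_irradiated tumors and from 9.79 to 13.53 (median 11.79) in WT_sham tumors. Its values were spread more evenly than those of Met, with a gap of 0.76 between classes in heterozygote hosts and 0.22 in wild-type hosts. Cav1 was higher in 7 tumors with lower Met, such as WT_sham replicate 46 at 12.82, and lower in 10 with higher Met, such as Het_irradiated replicate 35 at 8.44.

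Cav1 varied with some marker lists of stromal cells and not with others. Over 16 relations with 8 marker lists, Cav1 had an r of 0.53 with the fibroblast list in 24 tumors of heterozygote hosts (permutation test, two-sided, adjusted p = 0.0278) and a rho of 0.56 (adjusted p = 0.0419). In 32 tumors of wild-type hosts the r with the fibroblast list was 0.50 (permutation test, adjusted p = 0.0258) and the rho 0.43 (adjusted p = 0.0630). With the endothelial list in wild-type hosts r was 0.48 (adjusted p = 0.0258) and rho 0.56 (adjusted p = 0.0178). In heterozygote hosts the endothelial list did not pass, with an r of 0.41 (permutation test, adjusted p = 0.114) and a rho of 0.48 (adjusted p = 0.0630). The adipocyte list, of which 4 of 8 genes were tested, passed in neither host genotype. Its r was 0.20 (permutation test, adjusted p = 0.387) and its rho 0.23 (adjusted p = 0.377) in heterozygote hosts. In wild-type hosts r was -0.20 (adjusted p = 0.359) and rho -0.38 (adjusted p = 0.0815), with an r of -0.47 without the 2 farthest tumors. The relation with the macrophage list in wild-type hosts had an r of 0.45 (permutation test, adjusted p = 0.0323). That with the epithelial list had an r of -0.48 (adjusted p = 0.0258), with rho at 0.36 and -0.42 (adjusted p = 0.102 and 0.0630). In heterozygote hosts neither list passed, with r at 0.24 and -0.33 (permutation test, adjusted p = 0.359 and 0.263). There rho was 0.29 and -0.15 (adjusted p = 0.277 and 0.593). Without the 2 farthest tumors the fibroblast r was 0.52 in heterozygote and 0.37 in wild-type hosts, and the endothelial r in wild-type hosts 0.53. The macrophage and epithelial r in wild-type hosts were then 0.36 and -0.36. Without arrays of low 18S the fibroblast r was 0.62 in 21 tumors of heterozygote hosts and 0.44 in 26 tumors of wild-type hosts.

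St7, on the side of Met toward higher coordinates, lay on the same side as Met in 47 of 56 tumors, and all 28 tumors higher for St7 were higher for Met. It ranged from 7.15 to 12.37 (median 8.22) in Het_irradiated tumors and from 7.29 to 11.78 (median 8.56) in Het_sham tumors. It ranged from 6.61 to 12.52 (median 9.94) in WT_irradiated tumors and from 7.64 to 12.37 (median 11.52) in WT_sham tumors. In 9 tumors Met was higher and St7 lower, and in 6 of these Tes and Cav2 were both higher. The clearest was WT_irradiated replicate 48, which had the lowest St7 value of the series, 6.61, beside Met at 14.06 and Capza2 at 14.47. WT_irradiated replicate 54 had St7 at 7.20 and Het_irradiated replicate 26 at 7.21, while Tes was at 14.08 and 13.94 in the same tumors. These tumors had Tes, Cav2, Met and Capza2 high and the next gene low. Het_irradiated replicate 56 and Het_sham replicate 38, with St7 at 9.51 and 9.49, were counted as lower but lay between the sets.

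Wnt2 was low in most tumors and stood out in a few. It ranged from 4.36 to 7.34 (median 4.76) in Het_irradiated tumors and from 4.52 to 7.53 (median 5.26) in Het_sham tumors. It ranged from 4.75 to 8.74 (median 5.12) in WT_irradiated tumors and from 4.66 to 7.01 (median 5.35) in WT_sham tumors. The higher class held 7 tumors, and in all 7 Met was higher too. They were Het_irradiated replicate 1 at 7.34 and Het_sham replicate 30 at 7.53, WT_irradiated replicates 39, 25 and 59 at 8.74, 7.43 and 7.36, and WT_sham replicates 65 and 31 at 7.01 and 6.81. In the other 30 tumors with higher Met, Wnt2 was in the lower class. The side of Wnt2 equalled that of Met in 26 of 56 tumors, against a median of 28 over all genes. A higher class of 7 tumors allows no more than 26, so this count cannot be set against that median.

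Across members, 35 tumors had 4 or more of the 7 on the higher side. All 7 were higher in 5 tumors, and Tes, Cav2, Met, Capza2 and St7 were all higher in 23. The higher class held 28 (St7) to 37 (Met and Capza2) of 56 tumors for each member but Wnt2, with 7. With classes this large, many tumors would have 4 or more higher even if the members were unrelated. No such share over all genes was computed, so the count of 35 does not by itself show that members rose together. In 14 of the 37 tumors with higher Met, 1 or more of Tes, Cav2 and St7 was lower. With Met lower, 18 of 19 tumors had Tes, Cav2, Capza2, St7 and Wnt2 all lower. A rule that asked for 4 or more members at least 1 (log2) above the median of the host genotype found 1 tumor, Het_sham replicate 15. For Met and Capza2 the median itself lay among the higher tumors in both host genotypes. For Wnt2, and for Tes and St7 in heterozygote hosts, the median lay among the lower tumors. By the same rule turned round, 17 tumors had 4 or more members at least 1 below the median. Over all genes and tumors, 4.4% of values lay at least 1 above and 3.38% at least 1 below the median.

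**Figure D3:**
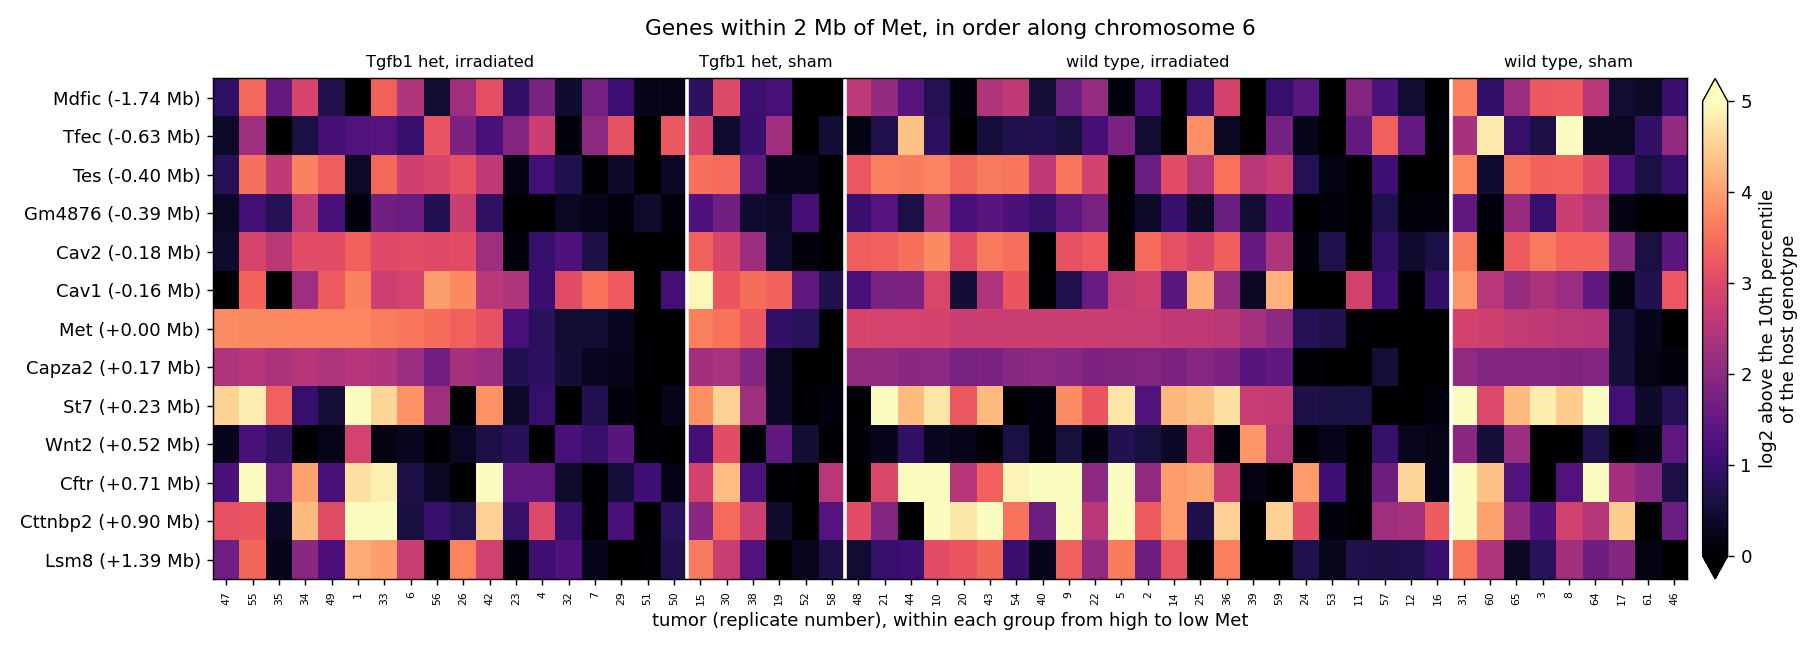
Genes within 2 Mb of Met, listed with the distance of their start from that of Met, in each of 56 tumors ordered by Met within the group; color is log2 expression above the 10th percentile of the host genotype, drawn from 0 to 5. Met and Capza2 are raised in the same 37 tumors, and which of the other genes are raised differs between tumors. Cav1, which lies between Cav2 and Met, is on the lower side in 10 of these 37.

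Genes that flank the members lay on the side of Met in 20 to 43 of 56 tumors. Within 2 Mb of Met, 6 further genes were tested. On the side of Tes, Mdfic lay on the side of Met in 35 tumors and Tfec, a transcription factor gene, in 20, below the median of 28 over all genes, with an r of 0.03 with Met. Gm4876 did so in 43 tumors, but it overlaps Tes in the annotation and the 2 signals are uncertain to be separate. On the side of Wnt2, Cftr, which encodes a chloride channel of epithelia, lay on the side of Met in 36 tumors, Cttnbp2 in 37 and Lsm8, an RNA-binding protein gene, in 38. In WT_irradiated replicate 5, where Tes and Cav2 were low, Cttnbp2 reached its highest value of the series, 12.20, and Lsm8 was 13.84. WT_irradiated replicate 39, with the highest Wnt2, had the lowest Lsm8 value of the series, 9.54.

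The median likeness to Met fell with distance along the chromosome, while single genes did not all follow. As a description, Pearson's r with Met was taken over 56 tumors after centring on the 4 group means, and it mostly reflects the 2 sets of tumors. Its median was 0.69 for 6 genes starting within 0.5 Mb of Met, 0.39 for 6 genes at 0.5 to 2 Mb and 0.32 for 27 genes at 2 to 10 Mb. It was 0.16 for 104 genes at 10 to 30 Mb and -0.02 for 503 genes farther away on chromosome 6, against 0.02 for 11835 genes of other chromosomes. The ranges overlapped. The highest r was 0.61 at 2 to 10 Mb and 0.49 at 0.5 to 2 Mb, and the lowest within 0.5 Mb was 0.34. The genes within 0.5 Mb include Gm4876, which overlaps Tes. The tumors share their arrays and cell makeup across genes, so these coefficients are not independent.

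**Figure D4:**
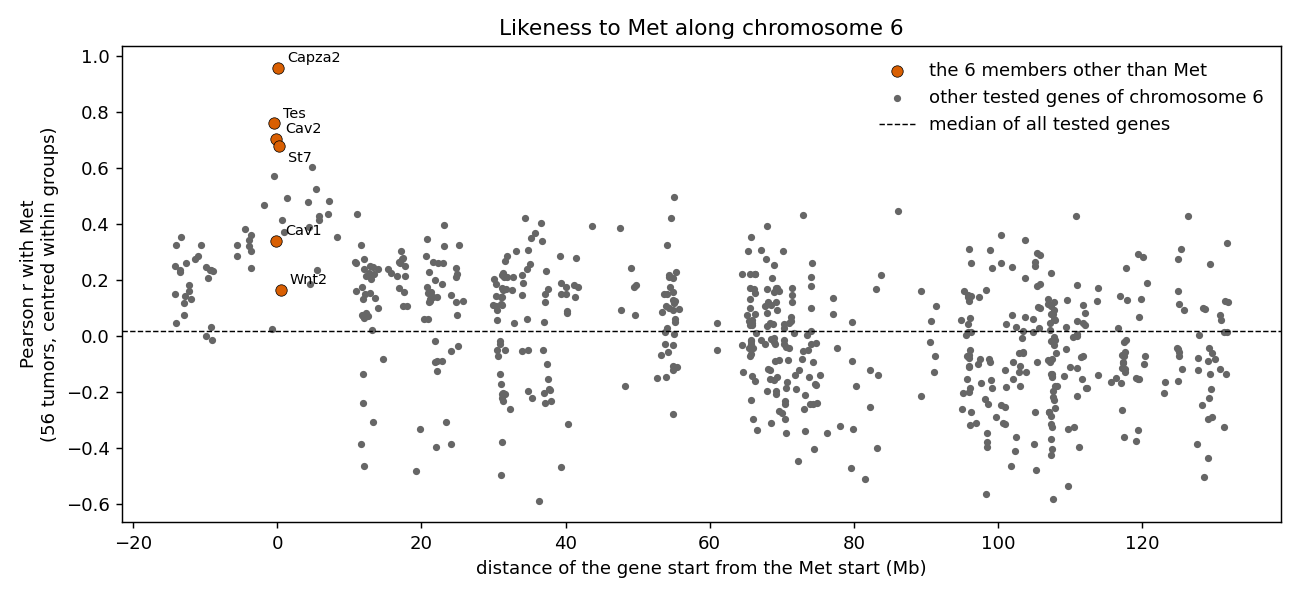
Pearson r with Met over 56 tumors, centred within groups, for tested genes of chromosome 6 against the distance of their start from that of Met in Mb; larger points are the 6 other members and the dashed line is the median of all tested genes. Capza2 at 0.96, Tes at 0.76, Cav2 at 0.71 and St7 at 0.68 stand above the other genes of the chromosome, and Cav1 at 0.34 and Wnt2 at 0.17 do not.

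By the same measure, the 8 genes most like Met among 12481 were Capza2 with an r of 0.96, Tes with 0.76, Stambpl1 and Pced1b with 0.73 each, Bmf with 0.72, Cav2 with 0.71, and Lpcat2 and Mmgt2 with 0.69 each. St7 followed at rank 9 with 0.68, Cav1 was at rank 975 and Wnt2 at rank 3471. Of the 8, Capza2, Tes and Cav2 are on chromosome 6. Stambpl1 lies on chromosome 19, Pced1b on chromosome 15, Bmf on chromosome 2, Lpcat2 on chromosome 8 and Mmgt2 on chromosome 11. These 5 shared the side of Met in 42 to 48 tumors, fewer than Capza2, Tes and Cav2. The remaining members did not exceed all 5, with St7 at 47 tumors, Cav1 at 39 and Wnt2 at 26.

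Between irradiated and sham-irradiated hosts, no member passed the test. Of 7 members, 0 were called in heterozygote hosts by limma at an adjusted p threshold of 0.05, as were 0.0% of the 12482 genes, of which 728 (5.83%) had an unadjusted p under 0.05. In wild-type hosts 0 of 7 members and 0.0% of genes were called, with 884 genes (7.08%) at an unadjusted p under 0.05. Met averaged 12.60 ± 1.68 (SD, n = 18) in Het_irradiated and 12.20 ± 1.76 (SD, n = 6) in Het_sham tumors (log2 fold change 0.40, standard error 0.76, limma adjusted p = 0.974). It averaged 12.95 ± 1.73 (SD, n = 23) in WT_irradiated and 13.00 ± 1.22 (SD, n = 9) in WT_sham tumors (log2 fold change -0.05, standard error 0.63, limma adjusted p = 0.992). Each of the 4 groups held tumors of both sets.

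The other members had log2 fold changes after irradiation of -0.57 (Cav1) to 0.51 (Capza2) in heterozygote hosts and of -0.84 (St7) to -0.03 (Tes) in wild-type hosts. The median over members was 0.28 in heterozygote and -0.06 in wild-type hosts, beside 0.01 and 0.00 over all genes. Averaged over host genotypes, 0 of 7 members and 0.00801% of genes were called, and 970 genes (7.77%) had an unadjusted p under 0.05. For the difference of the irradiation effect between host genotypes 0 members and 0.0% of genes were called, with 605 (4.85%) at an unadjusted p under 0.05, and the value for Met was 0.45 (standard error 0.99, limma adjusted p = 0.999).

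The share of tumors on the higher side for Met, counted after the 2 sets had been seen, was compared by Fisher's exact test, two-sided, in 4 comparisons. It was 11 of 18 in Het_irradiated and 3 of 6 in Het_sham tumors (exact p = 0.665), and 17 of 23 in WT_irradiated and 6 of 9 in WT_sham tumors (exact p = 0.685). Between host genotypes, the exact p was 0.503 among irradiated and 0.622 among sham-irradiated hosts. The adjusted p was 0.685 in each of the 4 comparisons, so a difference in this share was not detectable with these numbers of tumors.

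Host Tgfb1 genotype was compared across values that appear to have been normalized separately, so genotype and normalization cannot be told apart. Of 7 members, 0 were called between Het_irradiated and WT_irradiated tumors, where 31.5% of genes were called, 20 (0.16%) higher and 3918 (31.4%) lower, and the median of all genes was shifted by -0.22. With all arrays quantile normalized together, 90 genes were higher and 157 lower. Between Het_sham and WT_sham tumors 0 of 7 members were called beside 7.97% of genes, 10 (0.0801%) higher and 985 (7.89%) lower, with a median of -0.25, and 20 higher and 28 lower after joint normalization. For Met, the log2 fold change among irradiated hosts was -0.34 (standard error 0.51, limma adjusted p = 0.630) and among sham-irradiated hosts -0.80 (standard error 0.85, limma adjusted p = 0.593). The lowest adjusted p of a member was 0.225, for Wnt2 among irradiated hosts, with a log2 fold change of -0.44.

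Genes that act with Met were taken from a list of 28, of which 24 were tested. The ligand gene Hgf was not among them, because only 5 of 56 arrays had it above the median of all values, with values from 4.15 to 7.58 and a median of 4.76. Its activator Hgfac, the related receptor Mst1r and the ligand Mst1 were left out for the same reason. Of the 24, 0 were called higher or lower after host irradiation in either host genotype. Among irradiated hosts 4 of 24 were called lower in heterozygotes, the adaptor genes Grb2 and Crkl, the phosphatase gene Ptpn11 and the kinase subunit gene Pik3ca, with log2 fold changes of -0.34, -0.24, -0.21 and -0.33, beside the median of -0.22 over all genes. Over all genes tested, 31.4% were called lower in this comparison, so the count of 4 of 24 was not above the general share.

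The list did not follow Met across tumors as its neighbors did. Its median r with Met was 0.07, beside 0.02 over all genes, and 16 of 24 coefficients were positive. The highest was 0.49 for Ptprj, a receptor phosphatase, and the lowest -0.44 for Cbl, the ubiquitin ligase that marks the receptor for degradation. A list of 14 genes that MAP kinase signaling induces, such as Phlda1 with 0.37, had a median r of 0.11. Among 5 tested genes of other caveolar proteins the median was -0.21, with 1 positive, and among 5 tested genes of actin capping it was -0.09.

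Marker lists of cell types overlapped between tumors with higher and lower Met. The epithelial score was 6.86 to 12.58 in the 37 tumors with higher Met and 7.43 to 12.42 in the 19 with lower Met, and all 10 epithelial genes had a positive r with Met, with a median of 0.28. The basal and myoepithelial score, a mean of 8 genes such as Krt5 and Acta2, was 6.13 to 10.76 with higher and 5.94 to 11.02 with lower Met, and 7 of 8 genes had a negative r with a median of -0.44. Krt5 had -0.43, Acta2 -0.54 and Krt14 0.03. Within wild-type hosts the basal and myoepithelial score was 6.22 to 8.03 (median 6.93, n = 23) with higher Met. With lower Met it was 6.55 to 11.02 (median 8.13, n = 9), so that median lay above every wild-type tumor with higher Met. Within heterozygote hosts it was 6.13 to 10.76 (median 7.19) with higher and 5.94 to 10.87 (median 7.70) with lower Met. The fibroblast score was 9.03 to 12.13 with higher and 8.46 to 12.33 with lower Met, and the endothelial score 6.81 to 8.92 and 6.27 to 12.08. The 18S control was 9.28 to 13.31 with higher and 9.49 to 13.25 with lower Met. The part of cell makeup in the 2 sets of tumors was not tested. When residuals after the epithelial, fibroblast, adipocyte and endothelial scores were split in the same way, 40 tumors were higher for both Met and Capza2. The basal and myoepithelial score was not among these 4.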

How the data were processed

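RNA of 56 tumors, 100 ng each, was measured on Affymetrix 3' expression arrays, per the labels' protocols. The authors deposited 1 log2 value per probe set and array, computed with RMA according to the submitters' processing notes, with no version given there. Groups came from the labels alone. The 7 members and 12 gene lists were chosen with earlier results of these data known.

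Of 45101 probe sets, 34958 had 1 platform symbol, 932 several and 9211 were unnamed here; the first kind was used, and 12441 of 12482 tested genes matched the GRCm38.p6 annotation. Contrasts, 6 in all, were tested on the 4 group means of all 56 arrays with limma 3.58.1 under R 4.3.3 (lmFit, eBayes, Benjamini-Hochberg adjustment). Tumors were split into 2 classes per gene within each host genotype, which was chosen after the data were seen, as were the 10th percentile level, the 18S threshold and the comparisons of sides. The genes named beside the members were the 8 most like Met, those within 2 Mb and list members with the lowest p or extreme r; Krt5, Acta2, Krt14 and Phlda1 were chosen after their values were seen. A list score is the mean of its tested genes. Correlations used 100000 permutations. The methods were tested on simulated data. The highest correlation between 2 arrays was 0.990, so no array was treated as a copy. Alternatives were no filter, array weights, joint quantile normalization, an eBayes step with trend and robust estimation, other thresholds and each array left out. Plots used matplotlib 3.10.9 in Python 3.11.15.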

Additional observations from a re-analysis of the deposited data

How the results depend on the processing

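No member was called in any of 6 contrasts under 5 alternative settings or with any 1 of 56 arrays left out; the lowest adjusted p was 0.0978, and 0.424 for irradiation. Of 42 uncalled member log2 fold changes, some changed sign. Joint quantile normalization gave 0.24 for Wnt2 between sham-irradiated genotypes. Array weights gave 0.24 (Capza2), 0.12 (Cav2), 0.45 (Met) and 0.27 (Tes) for irradiation in wild-type hosts, -0.039 for the Met difference of the irradiation effect, -0.15 for Cav2 between irradiated genotypes and 0.0082 for Wnt2 between sham-irradiated ones. Without the 9 arrays of low 18S, irradiation in wild-type hosts gave 0.070 (Capza2) and 0.19 (Met), irradiation averaged over genotypes -0.18 (Cav2) and -0.0087 (Tes), the difference of the irradiation effect 0.49 (Cav1) and genotype in sham-irradiated hosts -0.26 (Cav1). Leaving out 1 array turned the sign of 18 values. For irradiation in wild-type hosts it ran -0.20 to 0.054 (Capza2), -0.29 to 0.21 (Met), -0.26 to 0.16 (Tes), -0.21 to 0.12 (Wnt2). For irradiation in heterozygote hosts it ran -0.024 to 0.64 (Cav2), -0.0898 to 0.75 (Met), -0.21 to 0.68 (St7), -0.014 to 0.77 (Tes). For irradiation averaged over genotypes it ran -0.11 to 0.23 (Cav2), -0.072 to 0.35 (Met), -0.021 to 0.37 (Tes). For the difference of the irradiation effect it ran -0.47 to 0.38 (Cav1), -0.036 to 0.80 (Met), -0.57 to 0.028 (Wnt2). For genotype in irradiated hosts it ran -0.012 to 0.30 (Cav1), -0.077 to 0.17 (Cav2). For genotype in sham-irradiated hosts it ran -0.27 to 0.58 (Cav1), -0.47 to 0.13 (Wnt2). The cause was not tested.

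Genes called between genotypes were 8622 (irradiated hosts) and 4032 (sham-irradiated) with no filter, where 18194 genes were tested, 247 and 48 after joint quantile normalization, and 614 in sham-irradiated hosts without arrays of low 18S, where fewer samples entered. For irradiation averaged over genotypes, array weights called 10 and leaving out 1 array 0 to 2. Tumors with 4 or more members raised numbered 4 at a threshold of 0.75, 0 at 1.5, 2 against their own group, 6 with the mean of all probe sets, 3 with residuals after 4 marker scores, 0 at 2 median absolute deviations, 6 when 3 members sufficed, and 35 both above the 10th percentile and by the 2-class split. Met and Capza2 were both higher in 37 tumors under joint normalization, a single cut and the mean of probe sets, and in 40 with residuals. Pooled correlations of members with Met passed in 8 of 12 cases in all settings run. No paired analysis was possible because the groups share no replicate numbers. Signal over background per array was not analysed here.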

Other observations

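Genes of chromosome 8 were frequent among those most like Met. Of the 100 genes with the highest r with Met over 56 tumors (centred within groups), 37 lay on chromosome 8, which holds 5.38% of the genes tested, and 15 on chromosome 11, which holds 8.42%. On chromosome 8 these included Lpcat2 with 0.69, a lysophospholipid acyltransferase gene, and Plcg2 with 0.65, a phospholipase of immune receptor signaling. Galnt7, an enzyme gene of O-linked glycosylation, lay on the side of Met in 48 of 56 tumors. The median r of the 671 tested genes of chromosome 8 was 0.18, beside 0.02 over all genes. Chromosome 6 held 7 of the 100 genes and 5.18% of the genes tested, with a median r of 0.05. At the other end, Thumpd2 with -0.70, Ankrd6 with -0.70 and Ebpl with -0.70 were least like Met, and none of the 3 is on chromosome 6.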
